A study of Mus musculus with 12 samples.

Results

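Components of parathyroid hormone receptor signalling (6 genes) were followed through the transcriptome of interscapular brown adipose tissue (BAT), namely the receptors *Pth1r* and *Pth2r*, the ligand *Pthlh* and the receptor activity-modifying proteins *Ramp1*, *Ramp2* and *Ramp3*. They were picked by gene symbol, and all 6 were found among the 25124 genes of the expression table. *Pth1r* entered because its level was higher in mice without *Txnip* (thioredoxin-interacting protein), so its differences between genotypes are described here and carry no test, whereas the other 5 genes entered as relatives of the receptor. RNA was sequenced from male mice of 10 weeks on the C57B/6J background, either wild type (WT) or with a whole-body knockout of *Txnip* (*Txnip*-/-), and WT mice were littermates of the knockouts. Before sampling they lived either at 23 °C, called RT for room temperature, or for 1 week at 30 °C, called TN for thermoneutral, and with 2 genotypes this gave 4 groups of 3 libraries each. The knockout is not restricted to BAT.

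The product of *Pth1r* is a class B G protein-coupled receptor that binds parathyroid hormone, made by the parathyroid glands, and parathyroid hormone-related protein, the product of *Pthlh*, made locally in many tissues. Bound receptor activates adenylyl cyclase through Gs and phospholipase C through Gq, and cyclic AMP (cAMP) then activates protein kinase A, the same second messenger that noradrenaline uses to switch on lipolysis and thermogenesis in brown adipocytes. In adipose tissue this receptor is known for its part in the browning and wasting of fat in cancer and kidney failure. RAMPs are single-pass membrane proteins that escort class B receptors and alter their ligand preference, and *Ramp2* with the receptor *Calcrl* forms a receptor for adrenomedullin on endothelium.

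The depth of the libraries ran from 29.93 to 47.44 (in 1e6 reads), of which the expression values imply 19.19 to 29.23 (in 1e6 reads) on listed genes. TPM, transcript abundances scaled for length and library size that can be set side by side between genes, fell on whole numbers of reads in each library, and the reads behind low values are given below. *Txnip* itself lay at 564 to 694 TPM for RT WT, 1072 to 1238 TPM for TN WT, 24.8 to 35.4 TPM for RT *Txnip*-/- and 10.5 to 14.4 TPM for TN *Txnip*-/-, which matched the genotype labels in all 12 libraries. All 10 brown adipocyte markers had a mean of at least 1 TPM in 3 groups, and 9 of 10 in TN *Txnip*-/-. Summed skeletal muscle markers (13 genes, among them *Acta1* and *Ckm*) reached 6.74 to 7.43 TPM in RT WT but 29.75 to 71.31 TPM in RT *Txnip*-/-, while the TN groups overlapped, with 8.83 to 29.28 TPM in WT and 9.14 to 25.77 TPM in *Txnip*-/-.

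The values of *Pth1r* belong to the RefSeq transcript NM_001083935 of 2205 bases, on the minus strand of chromosome 9 from 110722085 to 110743686 (mm10). RefSeq gives the gene 3 start sites in this build (GRCm38.p6, the assembly of mm10), at 110747145, 110743686 and 110742610, and the start at 110743686 is that of the counted transcript. *Myl3*, an alkali myosin light chain of slow and cardiac muscle, lies on the plus strand from 110763678 to 110769802 (NM_010859, 900 bases). The 250 bases before both starts are shown because they place the receptor gene and its muscle neighbour at separate start sites, chr9:110743687-110743936 (minus strand) for *Pth1r* and chr9:110763428-110763677 (plus strand) for *Myl3*, each written from 5′ to 3′ with matches to a GC box or a TATA box in capitals.
Pth1r: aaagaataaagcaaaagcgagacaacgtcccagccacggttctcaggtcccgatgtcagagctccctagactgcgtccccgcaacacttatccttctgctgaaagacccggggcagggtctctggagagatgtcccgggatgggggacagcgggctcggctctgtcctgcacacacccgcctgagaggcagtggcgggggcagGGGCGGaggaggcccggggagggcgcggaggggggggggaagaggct
Myl3: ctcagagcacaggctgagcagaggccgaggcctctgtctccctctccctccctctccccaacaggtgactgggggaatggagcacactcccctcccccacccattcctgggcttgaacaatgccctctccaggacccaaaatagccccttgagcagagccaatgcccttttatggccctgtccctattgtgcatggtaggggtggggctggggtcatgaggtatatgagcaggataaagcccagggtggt
The *Pth1r* stretch had a GC content of 65.6% and held 1 GC box (GGGCGG on either strand), a motif present in 32.7% of the 32851 mouse start windows of the same length. The *Myl3* stretch had a GC content of 59.6% and no GC box, and neither held a TATA box (TATAAA), which 12.4% of windows have. Among the start sites of *Pth1r*, the stretch before 110742610 held 4 GC boxes and that before 110747145 none. A full cAMP response element (TGACGTCA, 1.55% of windows) and the E-box CACGTG (6.02% of windows) were found in none of the 3 stretches. These letters are a description of the sequence and were not tied to any measured level.

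*Pth1r* was the second most abundant of the 6 genes, and its level was higher in *Txnip*-/- BAT at both temperatures. RT WT libraries had 13.0, 12.8 and 20.9 TPM, and RT *Txnip*-/- libraries had 32.6, 26.4 and 33.9 TPM. TN WT libraries had 11.8, 17.4 and 13.5 TPM, and TN *Txnip*-/- libraries had 42.3, 41.7 and 37.7 TPM. Every knockout library stood above every WT library of either temperature, and the WT library closest to the knockouts was RT WT replicate 3. Between 496 and 1887 reads lay behind each value, so counting error was small beside the spread between mice. Group means were 15.6 ± 4.66 TPM for RT WT, 14.2 ± 2.89 TPM for TN WT, 31.0 ± 4.02 TPM for RT *Txnip*-/- and 40.6 ± 2.53 TPM for TN *Txnip*-/- (SD, n = 3). Knockout over WT, the means stood in a ratio of 1.99 (RT) and 2.85 (TN), a difference of 15.4 TPM and 26.4 TPM. Averaged over the 12 libraries, *Pth1r* at 25.3 TPM exceeded 86.5% of listed genes.

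**Figure D1:**
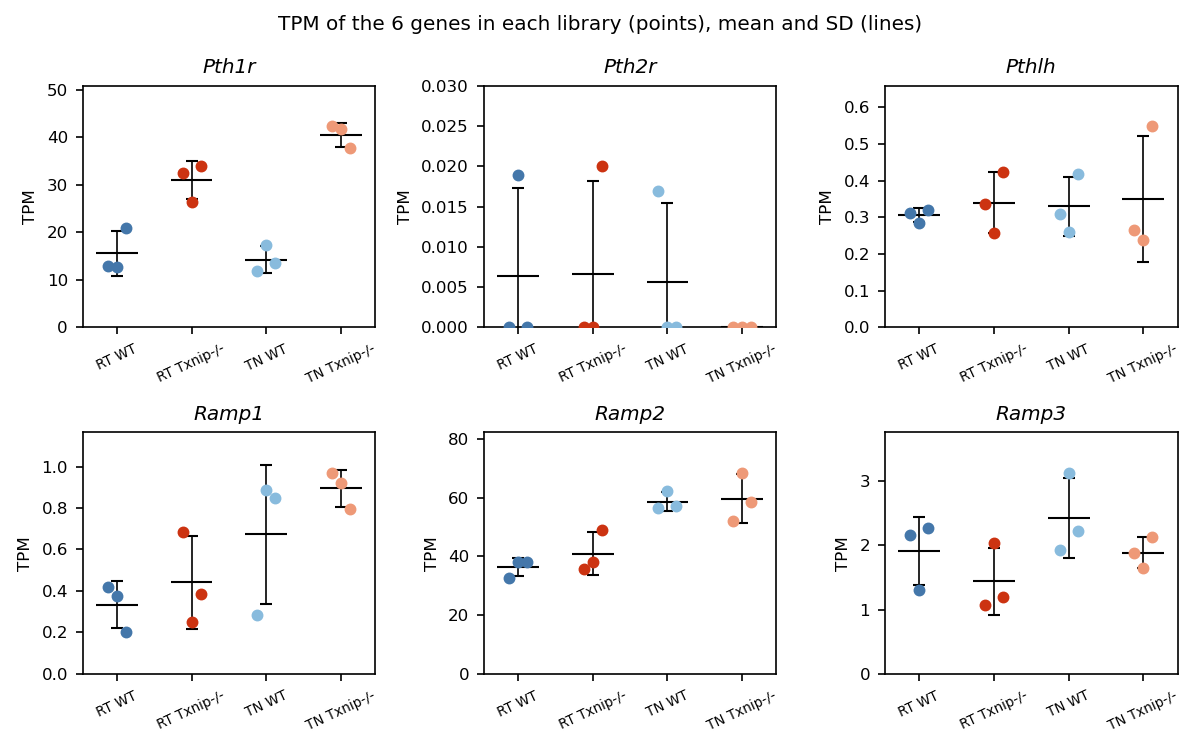
TPM (y axis, linear, own scale in each panel) of the 6 genes in 4 groups, WT and *Txnip*-/- at RT and the same at TN; points are libraries, horizontal lines group means and vertical bars SD (n = 3). *Pth1r* libraries of *Txnip*-/- mice lie at 26.4 TPM or more and WT libraries at 20.9 TPM or less, *Ramp2* is higher at TN in both genotypes, and *Pth2r* has no more than 1 read in any library.

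For context, groups did not overlap with the knockout higher for 15.1% of the 11980 genes tested at RT and for 17.7% of the 12891 genes tested at TN. The authors' own log2 values, normalized within each temperature, placed *Pth1r* at 9.50, 9.47 and 9.94 in RT WT against 10.27, 10.13 and 10.31 in RT *Txnip*-/-, and at 9.33, 9.64 and 9.42 in TN WT against 10.54, 10.55 and 10.39 in TN *Txnip*-/-. On this scale too the genotypes were apart, but the difference was 0.60 at RT and 1.03 at TN, compared with 0.97 and 1.46 on log2(TPM + 1). Leaving out each library in turn kept the log2(TPM + 1) difference between 0.86 and 1.2 at RT and between 1.35 and 1.61 at TN. At TN it exceeded that at RT by 0.49, with a range of 0.27 to 0.63 when single libraries were left out, and this difference of differences is likewise a description.

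Markers of some other cell types of the tissue also differed between the genotypes. Summed markers of fibroblasts and progenitors (8 genes, among them *Pdgfra*, *Col1a1* and *Dcn*) went from 255 to 292 TPM in RT WT to 298 to 339 TPM in RT *Txnip*-/-, and from 412 to 501 TPM (TN WT) to 808 to 828 TPM in TN *Txnip*-/-. Of the 7 of these genes tested, 5 were called higher in the knockout at TN, beside 6.49% of all tested genes, and 0 at RT, beside 0.760% (limma). Macrophage markers (6 genes, among them *Adgre1* and *Cd68*) summed to 24.3 to 29.4 TPM for RT WT, 47.8 to 73.4 TPM for TN WT, 36.1 to 50.7 TPM for RT *Txnip*-/- and 118 to 168 TPM for TN *Txnip*-/-, and all 6 were called higher in the knockout at TN, with 1 of 5 tested at RT. Of the skeletal muscle markers, whose sums are given above, 8 of 9 tested were called higher in the knockout at RT and 0 of 5 at TN. At RT, 2 of the 13 markers had a mean of at least 1 TPM in WT, against 11 in *Txnip*-/-. Most of the 9 thus passed the filter through the group where they were high, and the count of 8 is a description. Of slow or cardiac muscle markers 0 of 2 tested were called at either temperature, and of mural cell markers 1 of 7 was called lower at RT and 0 at TN. Lymphatic endothelium had 0 of 3 called at RT and 1 of 4 higher at TN, and lymphocytes 0 of 2 at RT and 1 of 3 higher at TN. Endothelium had 0 of 8 called at RT and 1 of 8 higher at TN. Of the brown adipocyte markers, 2 of 10 were called lower in the knockout at RT and 5 of 10 at TN. In bulk tissue, more cells of a type and more RNA per cell cannot be told apart, and the part of these cell types in the level of *Pth1r* was not tested.

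*Myl3* was examined because some annotated transcripts of *Myl3* and *Pth1r* overlap on opposite strands and the sources used here do not state whether counting used the strand. The counted transcripts share no base, and 19991 bases lie between them. In GENCODE, 1 of 6 *Pth1r* transcripts and 1 of 5 *Myl3* transcripts share 95 exon bases, from 110741939 to 110742033 of chromosome 9, and neither was the counted transcript. *Myl3* was low, with 1.69, 1.52 and 1.98 TPM for RT WT, 0.764, 1.90 and 1.33 TPM for TN WT, 2.58, 2.40 and 3.22 TPM for RT *Txnip*-/- and 1.83, 2.66 and 2.50 TPM for TN *Txnip*-/-, from 17 to 62 reads. The RT groups did not overlap, as for 15.1% of genes higher in the knockout, and the TN groups did. Neither difference passed the test, with a log2 fold change of 0.45 at RT (adjusted p = 0.136) and 0.53 at TN (adjusted p = 0.130, limma). Over the alternatives the difference ran from 0.12 (the authors' log2 scale) to 0.64 (voom) at RT and from 0.14 to 0.91 on the same scales at TN, where it was 0.35 without TN WT replicate 1, and it was not called in any.

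The shared bases lie outside the span of the counted *Myl3* transcript, so the *Myl3* reads given here set no limit on reads in them. The GENCODE transcript matched to the counted *Pth1r* transcript holds 0 of the 95 bases. Reads at those bases were not analysed here, and the part of skeletal muscle in the level of *Pth1r* was not tested.

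**Figure D2:**
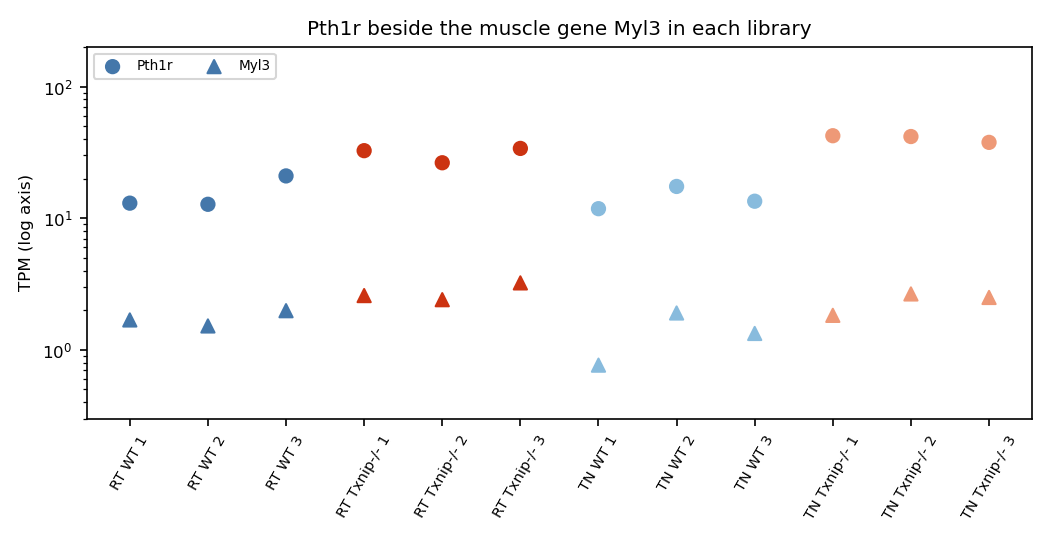
TPM on a log axis of *Pth1r* (circles) and *Myl3* (triangles) in each of the 12 libraries, coloured by group. *Myl3* lies between 0.764 and 3.22 TPM, while *Pth1r* lies between 11.8 and 42.3 TPM.

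Temperature itself did not enter the choice of genes and was tested with limma over all 12 libraries. *Pth1r*, however, was chosen on its level in the same libraries that its temperature comparisons use. Its p-values between temperatures are therefore not independent of that choice and are given as a description. The labels do not say whether RT and TN libraries were prepared together, so a difference in preparation, if there was one, and temperature cannot be told apart. *Pth1r* in WT went from 15.6 TPM at RT to 14.2 TPM at TN, with overlapping groups and a log2 fold change of -0.10 (SE 0.18, adjusted p = 0.653). This value turned positive, to 0.12, without RT WT replicate 3 and to 0.013 without TN WT replicate 1. In *Txnip*-/- mice it went from 31.0 to 40.6 TPM, every TN library being above every RT library, as for 44.1% of tested genes, with a log2 fold change of 0.39 (SE 0.18, adjusted p = 0.0904), which did not pass the test. Fitted to the 6 knockout libraries alone the same change had an adjusted p of 0.0155, and with limma's voom on implied reads 0.0349, and it was then called, with adjusted p from 0.0155 to 0.388 over all alternatives. The background matters here, since 37.8% of genes were called between temperatures in WT and 39.2% in *Txnip*-/-, most of them higher at TN, and the median gene was shifted by 0.18 and 0.15 on the log2 scale. With each library centred on its own median over the tested genes, a different quantity from that shift, the log2 difference of *Pth1r* was -0.29 in WT and 0.20 in *Txnip*-/-.

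The ligands of the receptor were near or below detection. *Pthlh* was read in every library but at 0.238 to 0.548 TPM, from 6 to 14 reads, with means of 0.306 ± 0.0186 TPM for RT WT, 0.329 ± 0.0798 TPM for TN WT, 0.339 ± 0.0835 TPM for RT *Txnip*-/- and 0.350 ± 0.172 TPM for TN *Txnip*-/- (SD, n = 3). The 4 groups overlapped throughout, and the exact 95% Poisson interval of a single library, such as 2.2 to 13.1 reads for 6 observed, was wider than the distance between group means. *Pth*, the gene of parathyroid hormone, had 0 reads in all 12 libraries, which allows up to 3 reads in each by the one-sided limit for a count of 0, and *Pth2*, which encodes the ligand of *Pth2r*, had 1 read in 1 library. *Pth2r* had 1 read in 1 library each of RT WT, RT *Txnip*-/- and TN WT and 0 in the other 9 libraries. Such values allow no statement on either gene between groups. Intervals and floors cover counting error alone.

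Among the RAMPs, *Ramp2* was by far the most abundant. It made up 94.1% ± 1.55 of summed RAMP TPM for RT WT, 95% ± 1.13 for TN WT, 95.5% ± 1.28 for RT *Txnip*-/- and 95.5% ± 0.815 for TN *Txnip*-/- (SD, n = 3). *Ramp3* made up 3.06% to 4.99% and *Ramp1* 0.877% to 1.45% of the sum by group mean. None of 12 comparisons of these shares by genotype or temperature passed an exact permutation test (two-sided, unadjusted p from 0.2 to 0.9, adjusted p from 0.8 to 0.9), a design of 3 against 3 that cannot go below 0.1.

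*Ramp2* followed temperature. RT WT libraries had 32.8, 38.2 and 38.3 TPM and TN WT libraries 56.4, 62.4 and 57.1 TPM, with no overlap, as for 45.5% of tested genes higher at TN. RT *Txnip*-/- libraries had 35.6, 38.2 and 49.1 TPM and TN *Txnip*-/- libraries 51.9, 68.5 and 58.6 TPM, again with no overlap, as for 44.1% of genes. The log2 fold change of TN over RT was 0.67 in WT (SE 0.12, adjusted p = 0.00122) and 0.54 in *Txnip*-/- (SE 0.12, adjusted p = 0.00386, limma), both above the shift of the median gene, and it was called under every alternative tried. With libraries centred on their medians the values were 0.49 in WT and 0.35 in *Txnip*-/-. Between genotypes *Ramp2* was not called, with log2 fold changes of 0.16 at RT (adjusted p = 0.606) and 0.017 at TN (adjusted p = 0.942), and the RT value was 0.022 without RT *Txnip*-/- replicate 3 and 0.085 without RT WT replicate 1. *Ramp3* was not called either, at -0.26 (adjusted p = 0.568) and -0.24 (adjusted p = 0.367), values that ran from -0.43 to -0.16 at RT and from -0.34 to -0.094 at TN when single libraries were left out, so that 0 of the 2 tested genes other than *Pth1r* were called between genotypes by limma or by voom, against a background of 1.49% of genes called at RT and 8.66% at TN. At an unadjusted p under 0.05 there were 0 of these 2, beside 16% of all genes at RT and 25.6% at TN. These results do not show equal levels.

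Endothelial markers moved with *Ramp2* between temperatures. The 8 markers, among them *Pecam1* and *Cdh5*, summed to 347 to 352 TPM in RT WT and 452 to 528 TPM in TN WT, and to 291 to 339 TPM in RT *Txnip*-/- and 492 to 545 TPM in TN *Txnip*-/-. Of these, 5 of 8 were called higher at TN in WT and 8 of 8 in *Txnip*-/-, beside 31.4% and 30.9% of all tested genes. This was not particular to endothelium. Macrophage markers were called higher at TN too, 6 of 6 in either genotype. Fibroblasts and progenitors had 5 of 7 higher in WT and 6 of 7 in *Txnip*-/-, and lymphatic endothelium 2 of 4 and 3 of 4. Brown adipocyte markers went the other way, with 6 of 10 called lower in WT and 8 of 10 in *Txnip*-/-. Summed skeletal muscle markers were lower at TN in *Txnip*-/- and higher in WT. The part of these cell types in the level of *Ramp2* was not tested.

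*Ramp3* lay between 1.08 and 3.13 TPM, from 27 to 71 reads. RT WT libraries had 2.17, 1.31 and 2.27 TPM, TN WT libraries 1.93, 3.13 and 2.21 TPM, RT *Txnip*-/- libraries 1.08, 2.04 and 1.19 TPM and TN *Txnip*-/- libraries 1.87, 1.65 and 2.13 TPM. All groups overlapped, and TN over RT gave 0.23 in WT (adjusted p = 0.305) and 0.26 in *Txnip*-/- (adjusted p = 0.253), near the shift of the median gene. When single libraries were left out these values ran from 0.074 (without RT WT replicate 2) to 0.34 in WT and from 0.155 (without RT *Txnip*-/- replicate 1) to 0.43 (without RT *Txnip*-/- replicate 2) in *Txnip*-/-. *Ramp1*, which with *Calcrl* forms the receptor for calcitonin gene-related peptide, lay below the limit of a mean of 1 TPM for testing, with 0.421, 0.376 and 0.204 TPM for RT WT, 0.286, 0.885 and 0.848 TPM for TN WT, 0.686, 0.249 and 0.387 TPM for RT *Txnip*-/- and 0.970, 0.921 and 0.796 TPM for TN *Txnip*-/-. Every TN *Txnip*-/- library exceeded every RT library, on 3 to 16 reads per library, as was so between the knockout groups for 44.1% of tested genes. With all detected genes admitted to the fit, its change from RT to TN in *Txnip*-/- was 0.41 with an adjusted p of 0.0592.

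The values of *Ramp1* depend on the transcript. The TPM table uses NM_178401 of 847 bases, whereas the authors' log2 tables use NM_016894 of 2544 bases, both starting at 91179822 on chromosome 1. On the longer transcript the log2 values at TN were 5.07, 5.18 and 5.16 in WT and 5.33, 5.32 and 5.26 in *Txnip*-/-, so every knockout library was above every WT library, as was so in TPM for 17.7% of tested genes, and at RT they were 3.87 in all 3 WT libraries and 3.91, 3.83 and 3.86 in *Txnip*-/-. In TPM the same TN groups overlapped, at 0.286 to 0.885 against 0.796 to 0.970. The other 5 genes have the same transcript in both kinds of table.

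*Pth1r* belongs to a list of 15 class B receptors, of which 5 reached the level for testing. *Pth1r* was the most abundant of them, followed by *Sctr* (secretin receptor) at 10.1 TPM, *Calcrl* at 5.86 TPM, *Adcyap1r1* (receptor of the neuropeptide PACAP) at 3.71 TPM and *Gipr* (receptor of the incretin GIP) at 2.27 TPM, as means over 12 libraries. The spread over libraries (SD) was 11.9, 3.09, 1.75, 1.97 and 0.584 TPM in this order. The 10 others, *Pth2r*, *Calcr*, *Vipr1*, *Vipr2*, *Gcgr*, *Glp1r*, *Glp2r*, *Ghrhr*, *Crhr1* and *Crhr2*, had means from 0.00467 to 0.179 TPM, and none exceeded 0.410 TPM in any library.

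Of the 4 tested receptors other than *Pth1r*, 1 was called between genotypes, *Sctr* at TN, where 8.66% of all genes were called. There WT libraries had 10.2, 7.87 and 7.16 TPM and knockout libraries 17.2, 13.6 and 13.2 TPM, a log2 fold change of 0.74 (SE 0.14, adjusted p = 0.0192). Over the alternatives the adjusted p ran from 0.00374 to 0.0627, and the call was lost with all detected genes in the fit and without TN WT replicate 2 or 3 or TN *Txnip*-/- replicate 1 or 2. At RT, *Sctr* had 8.56, 9.51 and 10.4 TPM in WT and 8.24, 7.90 and 7.26 TPM in *Txnip*-/-, a log2 fold change of -0.25 with an adjusted p of 0.245, groups that did not overlap, as for 7.58% of genes lower in the knockout. At TN *Calcrl* had 5.83, 5.58 and 6.10 TPM in WT and 8.83, 6.21 and 9.65 TPM in *Txnip*-/-, groups that did not overlap, as for 17.7% of genes higher in the knockout, with a log2 fold change of 0.41 and an adjusted p of 0.110. Without TN *Txnip*-/- replicate 2 this became 0.58 with an adjusted p of 0.0261, the alternatives ranging from 0.0261 to 0.274.

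Between temperatures, 2 of the 5 tested receptors, *Adcyap1r1* and *Gipr*, were called higher at TN in WT, beside 31.4% of all tested genes, and these 2 with *Calcrl* and *Sctr* in *Txnip*-/-, beside 30.9%. *Adcyap1r1* rose from 2.01 ± 0.396 to 5.39 ± 0.643 TPM in WT and from 1.77 ± 0.345 to 5.66 ± 0.875 TPM in *Txnip*-/- (SD, n = 3), with log2 fold changes of 1.09 (adjusted p = 0.00018) and 1.26 (adjusted p = 3.87e-05). *Gipr* rose by 0.45 and 0.52 on the log2 scale (adjusted p = 0.00199 and 0.00059), and with libraries centred on their medians the WT change fell to 0.26, below the limit of fold change for a call. *Calcrl* rose in *Txnip*-/- by 0.68 (adjusted p = 0.0024), and *Sctr* by 0.82 (adjusted p = 0.000316). Of 8 listed ligands (*Pthlh*, *Pth*, *Pth2*, *Calca*, *Calcb*, *Adm*, *Adm2* and *Iapp*), *Adm* (adrenomedullin) alone reached the level for testing and rose from 1.69 ± 0.404 to 4.87 ± 0.549 TPM in WT and from 1.17 ± 0.505 to 4.12 ± 0.359 TPM in *Txnip*-/-, with log2 fold changes of 1.13 (adjusted p = 0.000325) and 1.26 (adjusted p = 0.000101). The adrenomedullin-binding receptor *Ackr3* fell, by 1.73 in WT (adjusted p = 0.00145) and by 1.16 in *Txnip*-/- (adjusted p = 0.0116), the latter by 0.74 without RT *Txnip*-/- replicate 1.

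**Figure D3:**
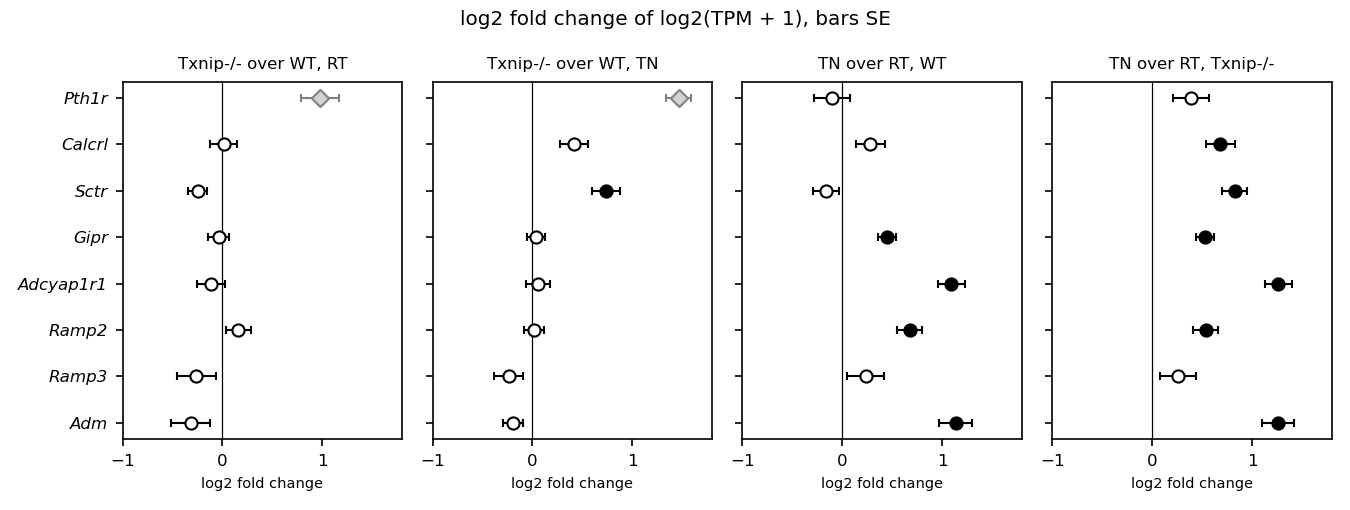
log2 fold changes on log2(TPM + 1) (x axis) of *Pth1r*, the other tested class B receptors, *Ramp2*, *Ramp3* and the ligand *Adm* in 4 comparisons; bars are standard errors, filled circles are called and open circles not called, and grey diamonds mark *Pth1r* where no test is given. *Ramp2* and *Adm* are called in both temperature panels, with 0.67 and 0.54 for *Ramp2*, and in neither genotype panel.

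Genes of the route from the receptor to cAMP and its targets were counted in 6 lists with 75 different genes tested at TN and 74 at RT. At RT, 0 of 74 were called between genotypes by limma and 0 by voom, with 7 at an unadjusted p under 0.05 beside 16% of all tested genes, and a median log2 fold change of 0.012, compared with 0.033 for all tested genes. At TN, 7 of 75 were called higher in *Txnip*-/- and 1 lower, which is 10.7% beside the 8.66% of all genes (6.49% higher and 2.17% lower), and their median of 0.029 compares with 0.008. By voom 9 were called, and 28 of 75 had an unadjusted p under 0.05, beside 25.6% of all tested genes. Of 16 tested genes of Gs, adenylyl cyclases and protein kinase A, 3 rose, *Adcy5* by 1.13 (adjusted p = 0.0249) and *Adcy7* by 0.83 (adjusted p = 0.0082), both adenylyl cyclases, and *Pkig*, an inhibitor of protein kinase A, by 0.46 (adjusted p = 0.0494). Of 12 genes of Gq, phospholipase C and protein kinase C, the kinase gene *Prkcd* rose by 0.86 (adjusted p = 0.0249).

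Of 13 genes of receptor desensitization and trafficking, the arrestin genes *Arrb1* and *Arrb2*, whose products bind phosphorylated receptors and end their coupling to G proteins, rose by 0.62 (adjusted p = 0.0138) and 0.70 (adjusted p = 0.0132). *Arrb1* reached 13.9 ± 1.59 TPM in WT and 21.9 ± 2.57 TPM in *Txnip*-/- at TN, and *Arrb2* 7.83 ± 1.18 and 13.3 ± 1.57 TPM (SD, n = 3). Of 13 cAMP phosphodiesterases, which break down the messenger, *Pde7b* fell by 0.52 (adjusted p = 0.0142). Of 15 genes of CREB, CRTC, SIK and class IIa HDAC, 0 were called, and of 11 cAMP-induced early genes *Fos* rose by 0.44 (adjusted p = 0.0488). *Adcy7*, *Arrb1* and *Arrb2* were called under every alternative tried, whereas *Adcy5*, *Prkcd*, *Pkig*, *Pde7b* and *Fos* lost the call in at least 1. Macrophage markers were higher in the same TN libraries, with the sums given above, and their part in these changes was not tested. The interaction of genotype and temperature called 0 of the 75 genes by limma and by voom, with 7 at an unadjusted p under 0.05 beside 12.6% of all genes, and it called 0.00801% of all genes, which is *Txnip* alone.

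**Figure D4:**
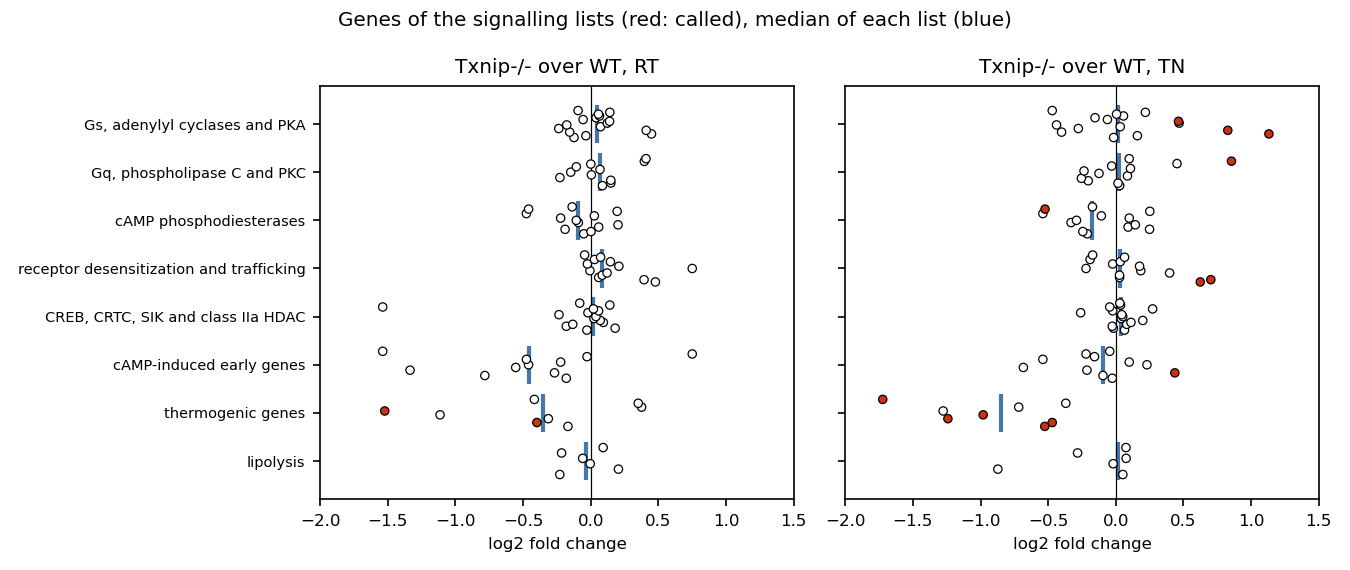
log2 fold changes of *Txnip*-/- over WT on log2(TPM + 1) (x axis) for each tested gene of 8 lists at RT and at TN; points are genes, red points are called and blue lines are list medians. At RT 2 points are red, both thermogenic genes, and at TN 3 of 16 genes of Gs, adenylyl cyclases and protein kinase A are red against 5 of 8 thermogenic genes.

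Thermogenic and lipolytic genes stand at the far end of cAMP signalling in brown adipocytes. Of 8 thermogenic genes, 2 were called lower in *Txnip*-/- at RT, as were 0.726% of all genes, *Elovl3* by a log2 fold change of -1.52 (adjusted p = 0.0488) and *Cox7a1* by -0.40 (adjusted p = 0.0289), each call being lost when any library but RT *Txnip*-/- replicate 2 was left out. At TN 5 of 8 were called lower, beside 2.17% of all genes, among them *Ucp1* at -1.72 (adjusted p = 0.0151) and *Cox8b* at -1.24 (adjusted p = 0.00297), which kept the call under every alternative. The other 3, *Dio2*, *Cidea* and *Cox7a1*, lost it under alternatives, with adjusted p up to 0.140, 0.0986 and 0.0710. Of 6 lipolysis genes 0 were called at either temperature.

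Between temperatures, 18 of the 75 signalling genes were called higher and 10 lower at TN in WT, and 23 higher and 13 lower in *Txnip*-/-. This is 37.3% and 48.0% of the genes, beside 37.8% of all tested genes in WT (31.4% higher and 6.39% lower) and 39.2% in *Txnip*-/- (30.9% higher and 8.27% lower). *Adcy3* fell by 0.86 in WT and *Gnas*, the Gs alpha subunit, fell by 0.56 in WT and by 0.82 in *Txnip*-/- (adjusted p = 5.86e-05, 0.00815 and 0.000752). *Adcy7* rose by 0.71 and 1.13 and *Pkia*, an inhibitor of protein kinase A, by 0.55 and 0.89. The phosphodiesterase *Pde4d*, itself induced by cAMP, fell by 1.46 in WT and by 1.52 in *Txnip*-/- (adjusted p = 0.000867 and 0.000472), and the nuclear receptor gene *Nr4a3* fell by 2.77 and by 1.94 (adjusted p = 0.000506 and 0.00306). *Fos* went the other way, rising by 0.71 and 1.254 (adjusted p = 0.0119 and 0.000359). *Mef2c*, a transcription factor restrained by class IIa HDACs, rose by 1.14 and 1.06 (adjusted p = 0.00028 and 0.000257). Each of these 8 genes kept its call in both genotypes under all alternatives. Macrophage markers were called higher at TN too, 6 of 6 in either genotype, and their part in these changes was not tested.

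Profiles were compared with that of *Pth1r* by the root mean square difference of centred log2(TPM + 1) over the 12 libraries, where *Pth1r* itself varied by 0.660. The 5 nearest of 12485 genes were *Adap1* (0.188), *Ngef* (0.230), *Pdk1* (0.259), *Dnph1* (0.276) and *Ttpa* (0.277). *Adap1* had group means of 6.05 and 10.8 TPM in WT and knockout at RT and 5.95 and 13.7 TPM at TN, and *Pdk1*, a pyruvate dehydrogenase kinase, 50.7 and 84.0 TPM at RT and 47.3 and 92.3 TPM at TN. Both were higher in the knockout at each temperature, as *Pth1r* was. The nearest to *Ramp2*, which varied by 0.338, were *B3gnt8* (0.0940), *Thsd1* (0.107) and *Smarcd3* (0.108). Likeness was chosen on these same libraries and is a description with no test. For *Ramp3* (0.268) the nearest were *Ssc4d*, *Fbxo6* and *Hey2* at 0.150 to 0.162, and for *Ramp1* (0.257) *Smox*, *3110040N11Rik* and *Rell2* at 0.0980 to 0.104, on few reads.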

How the data were processed

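Per the labels and the study's methods, poly-A RNA of BAT was read as single-end reads, the authors aligned them with STAR 2.7.5a to mm10 and counted exon reads with HOMER 4.11.1, keeping 1 transcript per gene. The authors deposited TPM of the 12 libraries, whose listed genes sum to 55.38% to 57.55% of the total, and, for each temperature, log2 values normalized across its 6 libraries by a transform not given in the sources used here. The deposited log2 fold changes, p-values and adjusted p-values of the authors' DESeq2 comparison were not used. The log2 tables use another transcript than the TPM for 4959 (RT) and 4899 (TN) of 25124 genes.

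TPM times length were whole multiples of 1 constant per library (100% of low values of at most 8 reads, tolerance 0.1), which gave the implied reads. On listed genes they came to 19.19 to 29.23 (in 1e6 reads) per library. Genes with a mean of at least 1 TPM were tested on log2(TPM + 1) with limma 3.58.1 (R 4.3.3, trend, Benjamini-Hochberg over all tested genes), genotype on 6 libraries and temperature and interaction on 12 with 4 group means. Calls needed a fold change under 0.8 or over its reciprocal and an adjusted p below 0.05 (the adjusted p alone for the interaction). RAMP shares were compared with exact permutation tests (SciPy 1.17.1). A fold change on log2(TPM + 1) understates the change of low genes. On simulated data with normal noise 87.5% to 95% of 200 genes with a log2 change of 1 were recovered, with 7 to 12 false calls. The changed genes were drawn from genes well above the testing limit of 1 TPM. The recovered share therefore does not cover lower genes such as *Ramp3*, *Myl3*, *Gipr*, *Adcyap1r1* and *Calcrl*. Alternatives changed the pseudocount, filter, scaling, replicate block, libraries fitted and scale, and limma's voom on implied reads was added after seeing the data.

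Genes named are the 6 genes, *Myl3*, *Txnip*, the ligands and class B receptors, up to 4 called genes per list and comparison, and those with the nearest profiles. The members and the lists were chosen with earlier results of these data known. Libraries were taken as separate mice, which the labels do not state, so p-values measure the spread between these libraries. Start sequences are from RefSeq (GRCm38.p6), found for 6 of the 7 genes looked for, and transcripts from GENCODE. *Ramp2* had no entry. The result of 1 marker list is not reported here.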

Additional observations from a re-analysis of the deposited data

Results flagged for a closer look

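*Sctr* in knockout libraries lay on opposite sides of WT at the 2 temperatures. All RT *Txnip*-/- libraries lay below all RT WT libraries, with a log2 fold change of -0.25, and all TN *Txnip*-/- libraries above all TN WT libraries, with 0.74. Groups that do not overlap with the knockout lower made up 7.58% of genes at RT, and with the knockout higher 17.7% at TN. The test of the difference itself gave 0.99 (SE 0.18, unadjusted p = 0.000158, limma adjusted p = 0.0895, from 0.0665 to 0.204 over the alternatives), which did not pass.

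*Txnip* had an interaction of -2.09 (limma adjusted p = 0.00344), the knockout libraries being further below WT at TN than at RT. From RT to TN its log2 fold change was 0.89 in WT and -1.21 in *Txnip*-/-, with no overlap in either genotype. In knockout libraries these values come from 486 to 2108 reads that were still counted to the deleted gene.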

How the results depend on the processing

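Of 2017 single-gene values under alternatives, 1822 were labelled the same, 170 lost the call, 3 gained it and 20 turned sign. The other 2 were *Pth1r* on the authors' log2 scale, which moved by more than 1 SD between replicates, to 0.60 at RT and 1.03 at TN. The same means the same direction and side of the threshold, whatever the size. For *Pth1r* between genotypes and in the interaction, which have no test, it means the same direction and a move within 1 SD, whatever the threshold. *Ramp2* between genotypes at TN turned to -0.019 under median centring and ran from -0.086 to 0.11 without single libraries. *Calcrl* between genotypes at RT turned to -0.0086 (upper-quartile), -0.017 (median centring), -0.018 (authors' log2 values) and -0.015 (voom), and ran from -0.12 to 0.11 without single libraries. Without single libraries *Pth1r* between temperatures in WT ran from -0.25 to 0.12, and the interaction from -0.10 to 0.25 for *Myl3* and from -0.078 to 0.20 for *Ramp3*. Genes called between genotypes at RT numbered 178, but 44 with all detected genes, 272 with 12 libraries and 2 to 159 without single libraries (2 without RT WT replicate 2). At TN they numbered 1116, but 621 with all detected genes and 456 to 1005 without single libraries (456 without TN *Txnip*-/- replicate 1). The interaction called 1 gene, 2 by voom and 1 to 6 without single libraries. Of the 6 genes, 1 was called between temperatures in *Txnip*-/- and 2 when fitted to its 6 libraries or by voom, the added gene being *Pth1r*. A planned limit on *Myl3* reads counted to *Pth1r*, and its alternative, are not given, because the shared bases lie outside the counted *Myl3* transcript. They lie within the span of the counted *Pth1r* transcript but outside the exons of the GENCODE transcript matched to it. Without single libraries the differences in RAMP share, in percentage points, ran from -0.188 to 0.422 for *Ramp1* between genotypes at RT, -0.082 to 1.05 for *Ramp2* between genotypes at TN, -0.602 to 0.661 for *Ramp2* and -0.89 to 0.448 for *Ramp3* between temperatures in *Txnip*-/-. The labels do not say that replicate numbers pair the libraries, and the correlations between WT and knockout libraries do not settle it. Same-numbered libraries correlated at -0.022 to 0.297 at RT, beside -0.301 to 0.159 for libraries of different numbers. At TN the ranges were -0.036 to 0.042 and -0.083 to 0.07. With the number as a replicate block 100 genes were called between genotypes at RT, and *Cox7a1* and *Elovl3* at RT and *Cox7a1*, *Fos* and *Pkig* at TN lost their call. Depth limits *Pth2r*, *Pthlh* and *Ramp1*, at 16 reads or fewer per library.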
